A study of Arabidopsis thaliana with 60 samples.

Results

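Stems of an Arabidopsis thaliana line labelled HCT-RNAi, in which an RNA interference construct silences the lignin gene HCT, were compared with stems of the wild type Col-0 (set 1), with 3 samples in each group. Of 37967 genes counted in every table, 16805 had a mean of at least 2 CPM (counts per 1e6 counts) over these 6 libraries, and the 12117 of them with no exon base under an exon of the opposite strand carry the results. The labels give the genotypes as HCT-RNAi and WT. Stems of both were taken after 9 to 10 weeks on 0.5x Noren medium. No source used here gives the ecotype of the HCT-RNAi line, the promoter of its construct, the number of transgenic lines or the number of plants per sample. A second set of Col-0 stems (set 2), also of 3 samples and deposited with another line of the series, served as a further wild type.

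Lignin is a polymer of phenolic alcohols that stiffens the walls of xylem vessels and fibres of the stem. Its precursors, the monolignols, are made from phenylalanine by the phenylpropanoid pathway, and HCT moves the coumaroyl group from coenzyme A to shikimate and, after hydroxylation, the caffeoyl group from shikimate to coenzyme A, between the first steps shared with flavonoids and the steps that lead to guaiacyl and syringyl lignin. Plants low in HCT are known to contain less lignin, to have an altered lignin make-up and to grow poorly. GPT2, the second gene of interest in the series, imports glucose 6-phosphate into plastids.

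The genes without overlap were singled out because the tables differed at overlapping genes. HCT-RNAi differed from Col-0 set 1 by a median log2 value of -0.0037 over the 12117 genes without overlap, 0.20 over 1059 genes with 10 to 25% of their exon bases overlapped, 2.44 over 161 genes with 50 to 75% and 10.68 over 233 genes with 75 to 100%. Col-0 set 2, also wild type, differed from Col-0 set 1 by medians of 0.0008, 0.31, 2.61 and 10.50 over the same genes. A library kit that keeps the strand was used in all groups per the labels, and no source used here gives the strand setting of the counting. A call means an adjusted p under 0.05 in edgeR's quasi-likelihood F test, and a change is said to be shared by Col-0 set 2 where set 2 differs from set 1 in the same direction by at least 0.5 of the log2 size. Both differences use the same set 1 tables, so a shared change cannot be told apart from a difference of those tables. Over the genes without overlap, set 2 differed from set 1 by a median absolute log2 value of 0.65, against 0.20 for HCT-RNAi. For a change of usual size, sharing thus depended largely on the direction of the wild type difference, and 59.3% of all calls were shared. Sharing alone does not separate the line from the tables. Total counts were 23041771 to 26129812 in HCT-RNAi and 16591700 to 24150608 in Col-0 set 1. The tables of Col-0 set 2 had to be read in the row order of another table of the series, and their libraries stood far from each other, with total counts of 5258309, 14603171 and 31713084.

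Sequences of 4 promoters are shown for HCT and for pathway genes that were lower together with it, since the AC elements, short motifs that MYB regulators of lignin genes are known to bind, lie there. Each is the 300 bases just before the annotated gene start in TAIR10.1, 5′ to 3′ on the strand of the gene, and capitals mark an AC element on either strand. The element AC-I was searched as ACCTACC. For AC-II the letters searched were ACCAACC, and AC-III stood for ACCTAAC in the search.
HCT, chr5:19838236-19838535, minus strand: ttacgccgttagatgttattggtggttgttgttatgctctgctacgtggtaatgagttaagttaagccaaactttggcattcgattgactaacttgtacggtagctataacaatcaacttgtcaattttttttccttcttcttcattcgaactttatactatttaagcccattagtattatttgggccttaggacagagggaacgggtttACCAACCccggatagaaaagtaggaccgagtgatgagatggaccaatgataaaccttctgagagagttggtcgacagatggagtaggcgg
C4H, chr2:12996013-12996312, minus strand: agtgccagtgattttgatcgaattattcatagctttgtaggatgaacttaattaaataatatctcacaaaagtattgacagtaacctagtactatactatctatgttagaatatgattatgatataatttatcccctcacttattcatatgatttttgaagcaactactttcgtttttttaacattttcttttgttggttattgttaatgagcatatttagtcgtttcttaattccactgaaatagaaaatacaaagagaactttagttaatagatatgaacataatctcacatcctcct
4CL2, chr3:7457405-7457704, minus strand: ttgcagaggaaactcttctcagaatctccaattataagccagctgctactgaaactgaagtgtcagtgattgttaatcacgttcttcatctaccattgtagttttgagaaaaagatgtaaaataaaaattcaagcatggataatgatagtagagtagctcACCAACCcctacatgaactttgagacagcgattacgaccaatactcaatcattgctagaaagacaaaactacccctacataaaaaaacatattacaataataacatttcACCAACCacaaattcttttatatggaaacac
CCoAOMT1, chr4:16310109-16310408, plus strand: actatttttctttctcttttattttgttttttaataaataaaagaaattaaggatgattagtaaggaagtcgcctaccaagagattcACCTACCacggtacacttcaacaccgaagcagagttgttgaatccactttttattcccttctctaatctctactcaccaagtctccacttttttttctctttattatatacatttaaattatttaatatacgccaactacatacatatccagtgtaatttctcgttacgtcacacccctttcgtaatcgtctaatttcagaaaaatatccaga
HCT held 1 element, AC-II, starting 90 bases before the gene start. 4CL2, a 4-coumarate:CoA ligase, held 2 copies of AC-II, at 140 and 31 bases before its start, and CCoAOMT1, a methyltransferase of the pathway, held AC-I at 213 bases. C4H, the cinnamate hydroxylase, held none of the 3 motifs in this window. PAL4, CSE, PAL1, PAL2 and FAH1, which with C4H had the largest falls of the pathway list, held none either. Of the 14 pathway genes without overlap other than HCT, 5 promoters (35.7%) held at least 1 element, against 883 (7.29%) of the 12116 promoters of tested genes that could be read. These 5 were 4CL2, CCoAOMT1, CCOAOMT7, ATR2 and CAD5, all with smaller falls. The matches are of letters and not sites of binding, and a link between elements and falls was not tested.

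HCT (AT5G48930, chromosome 5, 19836299 to 19838235, minus strand of TAIR10.1) was lower in the silenced line. The level stood at 215, 200 and 193 scaled CPM in the HCT-RNAi libraries, against 496, 534 and 471 scaled CPM in Col-0 set 1. These levels are CPM on genes without overlap, scaled by trimmed mean of M-values (TMM). The groups did not overlap, and the log2 fold change was -1.30 (SE 0.05, edgeR adjusted p = 5.35e-14). Col-0 set 2 held 698, 602 and 599 scaled CPM, so all 3 HCT-RNAi libraries were below all 6 wild type libraries. The residual level was 203 ± 10.9 scaled CPM in HCT-RNAi, against 500.3 ± 31.8 scaled CPM in Col-0 set 1 (SD, n = 3 each). Counts per gene do not tell transcripts of the gene from those of a construct, and whether construct reads add to the HCT-RNAi values was not tested.

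GPT2 (AT1G61800, chromosome 1, 22824414 to 22826902, plus strand) rose in HCT-RNAi. It had 8.46, 13.4 and 12.5 scaled CPM in HCT-RNAi stems, against 1.95, 1.59 and 1.95 scaled CPM in Col-0 set 1, a fold change (log2) of 2.65 (SE 0.19, edgeR adjusted p = 1.06e-09). The groups did not overlap. Col-0 set 2 had 8.90, 1.32 and 1.43 scaled CPM, so its first library, with the lowest total count, overlapped the HCT-RNAi libraries. These set 2 values, from 34, 16 and 34 counts, rest on the other row order, since the row labelled GPT2 in the set 2 tables holds 34, 29 and 25 counts, the same as the GPT2 row of Col-0 set 1. Against set 2 the log2 fold change was 1.92 (edgeR adjusted p = 0.0474). Other plastid translocators moved less. Of 7 tested without overlap, a list that leaves GPT2 out, 5 rose and none fell (1 fell without Col-0 set 1 replicate 3), with a median log2 fold change of 0.25 and with PPT2, a phosphoenolpyruvate translocator, at 1.07 (SE 0.14) and the maltose exporter MEX1 at 0.60 (SE 0.10). GPT1, the paralog of GPT2, had 37.0, 35.9 and 36.2 scaled CPM in HCT-RNAi and 37.7, 37.2 and 37.0 scaled CPM in Col-0 set 1 and was not called.

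The genes of monolignol synthesis fell nearly throughout. Of 14 tested members without overlap, HCT not counted, 13 fell and 1 rose, where 27.2% of all 12117 genes were called lower and 28.2% higher. The counts of the lists that follow stand against the same shares. The median log2 fold change of the 14 was -0.39, against -0.0037 over all genes. Of the 13 falls, 9 were not shared by Col-0 set 2 and 4 were shared. Over all genes the not-shared falls and rises made up 10.1% and 12.5%, and the shared ones 17.1% and 15.7%.

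At the entry of the pathway, phenylalanine ammonia lyase removes ammonia from phenylalanine. PAL4 had 364, 346 and 333 scaled CPM in HCT-RNAi, against 704, 795 and 656 in Col-0 set 1, a fold change (log2) of -1.05 (SE 0.06, edgeR adjusted p = 1.13e-11). PAL1 and PAL2 fell as well, at -0.71 (SE 0.05) and -0.66 (SE 0.04). These 3 falls were shared by Col-0 set 2, which stood at 532, 413 and 486 scaled CPM for PAL4 and between 271 and 299 for PAL2. PAL3 was the member that rose, at 0.43 (SE 0.07). C4H, which hydroxylates cinnamate, had 543, 544 and 503 scaled CPM in HCT-RNAi, against 903, 955 and 906 in Col-0 set 1. Its log2 fold change was -0.80 (SE 0.04, edgeR adjusted p = 1.00e-11), and Col-0 set 2 stood at 881 to 1082, above every HCT-RNAi library. ATR2, a reductase that passes electrons to such cytochromes P450, fell by 0.29 on the log2 scale, and that fall was shared.

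After HCT, CSE releases caffeate from caffeoyl shikimate. It had 247, 247 and 239 scaled CPM in HCT-RNAi, against 393, 438 and 387 in Col-0 set 1, a fold change (log2) of -0.73 (SE 0.05, edgeR adjusted p = 1.18e-10). FAH1, the ferulate 5-hydroxylase that directs the pathway to syringyl units, stood at -0.61 (SE 0.05). The methyltransferases CCoAOMT1, CCOAOMT7 and COMT1 had log2 fold changes of -0.39, -0.36 and -0.33, and 4CL2, which acts before HCT, one of -0.39. The alcohol dehydrogenases of the last step, CAD4 and CAD5, stood at -0.33 and -0.17, and CAD5 lost its call without HCT-RNAi replicate 3 (edgeR adjusted p = 0.0515). None of these 8 falls was shared by Col-0 set 2. Members with overlap were left out of the counts. Among them 4CL1 (-0.80), CYP98A3 (-0.65), the coumaroyl shikimate hydroxylase, and 4CL5 (-0.39) had at most 5% of their exon bases overlapped, whereas CCR1, with 289, 279.6 and 278 scaled CPM in HCT-RNAi and 126, 133 and 135 in Col-0 set 1, had 77.2%.

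**Figure D1:**
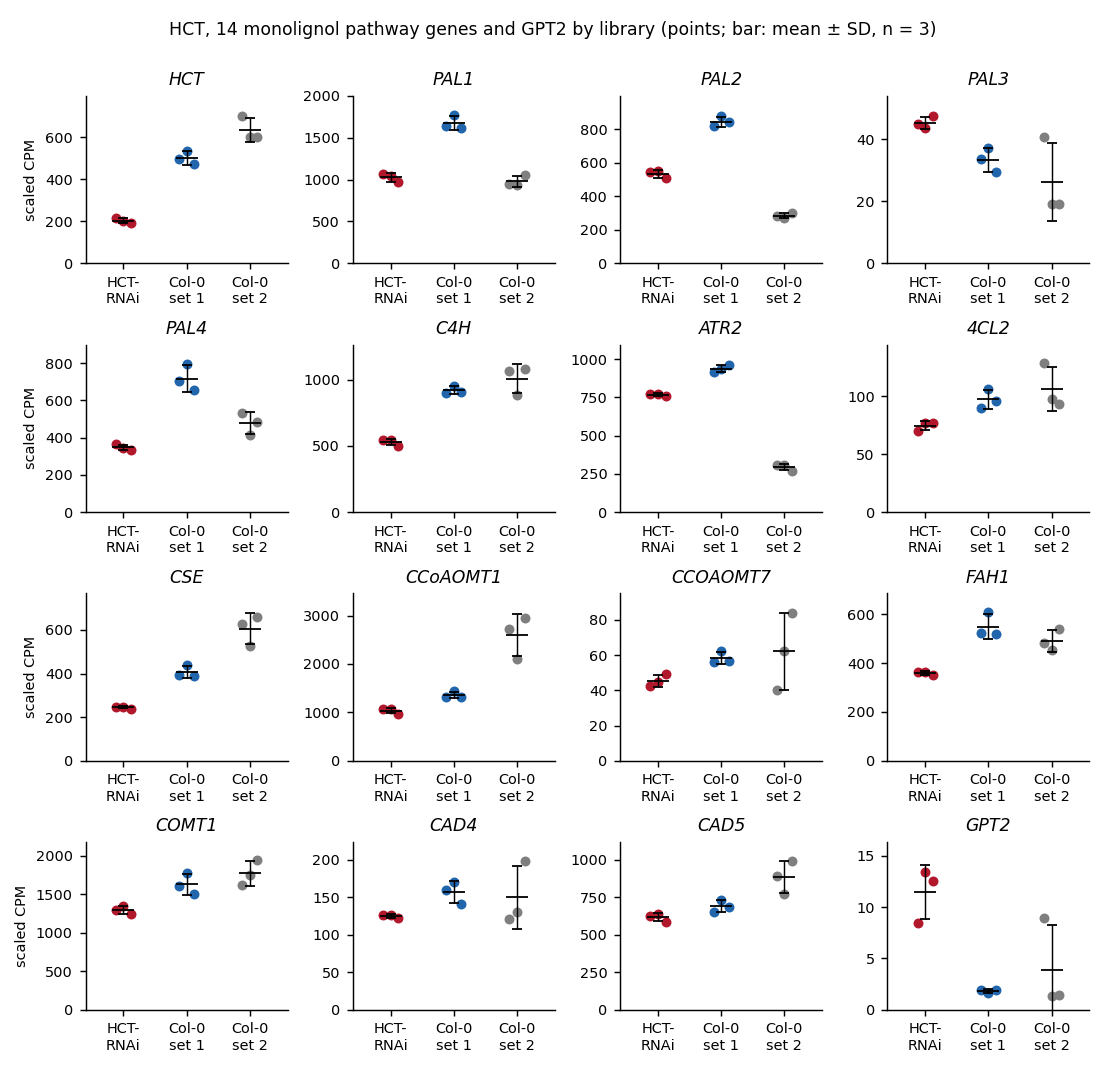
Level in scaled CPM (y axis, from 0) of HCT, 14 monolignol pathway genes and GPT2 in each of the HCT-RNAi, Col-0 set 1 and Col-0 set 2 libraries; points are libraries and bars the mean ± SD (n = 3). HCT stands at 193 to 215 in HCT-RNAi and at 471 to 534 in Col-0 set 1, and C4H and CSE have the same order, while PAL2 and ATR2 are lowest in Col-0 set 2.

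Genes next to the pathway moved in part. In the shikimate and phenylalanine list 6 of 9 members fell and none rose (median -0.32), and 3 of the 6 were shared by Col-0 set 2. The chorismate mutase CM1, at -0.52 (SE 0.06), and MEE32, the dehydroquinate dehydratase and shikimate dehydrogenase, at -0.32 (SE 0.05), were not shared. All 3 tested monolignol glucoside genes fell, led by the glucosyltransferase UGT72B1 with 251, 264 and 242 scaled CPM in HCT-RNAi, against 368, 379 and 373 in Col-0 set 1. UGT72B3, another of the 3, lost its call without HCT-RNAi replicate 1 or 3 or Col-0 set 1 replicate 2 (edgeR adjusted p = 0.122, 0.0530 and 0.123). In the list of laccases and peroxidases that polymerize lignin, 3 of 8 fell, all shared, and 1 rose. Over all genes 27.2% fell and 28.2% rose. Without Col-0 set 1 replicate 3, 5 members of the list fell. Of the 3, LAC10 lost its call without Col-0 set 1 replicate 2 (edgeR adjusted p = 0.0550). The rise was that of the peroxidase PRX71, with 89.1, 87.9 and 81.2 scaled CPM in HCT-RNAi, against 47.0, 46.6 and 42.4 in Col-0 set 1 (log2 fold change 0.92, SE 0.05). LAC4, a laccase of stem lignification, had 1571, 1441 and 1430.1 scaled CPM in HCT-RNAi and 1656, 1850.03 and 1306 in Col-0 set 1 and was not called. All 16 listed laccases and peroxidases summed to 1434 to 1765 scaled CPM in Col-0 set 2, against 2760 to 3471 in Col-0 set 1. Sharing therefore says little about this list. Of 3 tested acyltransferases of the family of HCT, EPS1 (3.48, 3.40 and 3.82 scaled CPM in HCT-RNAi, 7.57, 7.67 and 7.70 in Col-0 set 1) and DCF (-0.98) fell, and DCR, which acts in cutin synthesis, rose at 1.14.

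The regulators of the secondary wall did not move in 1 direction. Of 24 tested transcription factors 11 fell and 6 rose, with a median of -0.12, where 27.2% of all genes fell and 28.2% rose. MYB43, MYB85 and MYB63, activators of secondary wall or lignin genes, fell at -0.72 (SE 0.07), -0.60 (SE 0.07) and -0.19 (SE 0.08), none of them shared. MYB63 lost its call without HCT-RNAi replicate 2 or 3 or Col-0 set 1 replicate 3 (edgeR adjusted p = 0.120, 0.160 and 0.141). MYB46 and MYB83, the paired switches upstream of wall synthesis, rose at 0.55 (SE 0.08) and 0.38 (SE 0.13), not shared either, and MYB83 lost its call without HCT-RNAi replicate 1 or 2 or Col-0 set 1 replicate 2 (edgeR adjusted p = 0.0515, 0.0641 and 0.106). The fibre switch NST1 had 56.5, 53.7 and 46.6 scaled CPM in HCT-RNAi and 51.6, 54.6 and 49.96 in Col-0 set 1 and was not called. SND1, another fibre switch, fell at -0.36 (edgeR adjusted p = 2.36e-06). MYB4, a repressor of phenylpropanoid genes, rose at 0.53 (SE 0.07), and that rise was shared. In primary wall cellulose, CESA2, CESA5, CESA6 and COB rose by 0.23 to 0.35 on the log2 scale, none shared, and CTL1 fell at -0.17, shared, which makes 5 members tested. The sum over all 9 listed members, 4 of them left out for overlap, went the other way. It was 7043 to 7139 scaled CPM in HCT-RNAi, against 7521 to 7785 in Col-0 set 1. Of 13 xylan genes 6 rose and 1 fell, and 4 of the 6 rises were shared, while without Col-0 set 1 replicate 3, 5 rose and 4 fell, and without HCT-RNAi replicate 3 or Col-0 set 1 replicate 2 none fell.

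Cell types of the stem were followed by marker genes. All 4 tested vessel markers fell (median -0.44), with the metacaspase MC9 at -0.50 and the xylem peptidase XCP2 at -0.17, 3 of them not shared. BFN1, a nuclease among the 4, lost its call without HCT-RNAi replicate 2 or Col-0 set 1 replicate 3 (edgeR adjusted p = 0.120 and 0.0725), and XCP1, left out for overlap, stood at 0.54. The summed level of the 5 listed vessel markers was 390.0 to 406 scaled CPM in HCT-RNAi, against 392 to 418 in Col-0 set 1. Of 6 cambium markers 4 rose and none fell, with ANT at 0.90 (SE 0.07) and WOX4 at 1.05 (SE 0.07, shared). HB-8, at 0.15, lost its call without HCT-RNAi replicate 1 or 2 or Col-0 set 1 replicate 1 (edgeR adjusted p = 0.0802, 0.0721 and 0.0796). The cambium sums were 604 to 650 scaled CPM in HCT-RNAi and 541 to 562 in Col-0 set 1. Of 8 phloem markers 3 rose and 2 fell, where 28.2% of all genes rose and 27.2% fell. CLE44, one of the rises, lost its call without HCT-RNAi replicate 2 or 3 or Col-0 set 1 replicate 2 or 3 (edgeR adjusted p = 0.0572 to 0.116). The 7 flower and 4 seed markers were all under the filter, and the flower markers summed to 7.68 to 9.19 scaled CPM in HCT-RNAi and 5.32 to 7.06 in Col-0 set 1. In whole stems, fewer cells of a type and less RNA per cell cannot be told apart, and the part of these shifts in the other results was not tested.

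Of 20 cuticular wax and cutin genes 10 fell, 1 rose and 9 were not called (median -0.14), and 6 of the falls were not shared. CER6, which elongates very long chain fatty acids for wax, had 662, 656 and 670 scaled CPM in HCT-RNAi, against 1033, 1068 and 1022 in Col-0 set 1 (log2 fold change -0.65, SE 0.04, edgeR adjusted p = 3.85e-11), and Col-0 set 2 stood at 1079 to 1255. The elongases KCS10 and KCS1 fell at -0.71 and -0.61, the acyl-CoA synthetase LACS1 at -0.53 and the wax exporter ABCG12 at -0.50. CYP86A4, a cutin hydroxylase of low level, rose at 1.68 (SE 0.20). Of 6 epidermis markers 5 fell, 3 of them shared, but CER6, KCS10, CER1 and CER3 stand in both lists, so these counts are not separate. Their summed level was 2147 to 2160 scaled CPM in HCT-RNAi, against 2937 to 3119 in Col-0 set 1 and 2196 to 2688 in Col-0 set 2. PDF1, a protodermal factor, was the exception, with 12.9, 17.7 and 20.5 scaled CPM in HCT-RNAi and 4.47, 6.03 and 5.06 in Col-0 set 1. The part of the epidermis in the wax values was not tested.

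**Figure D2:**
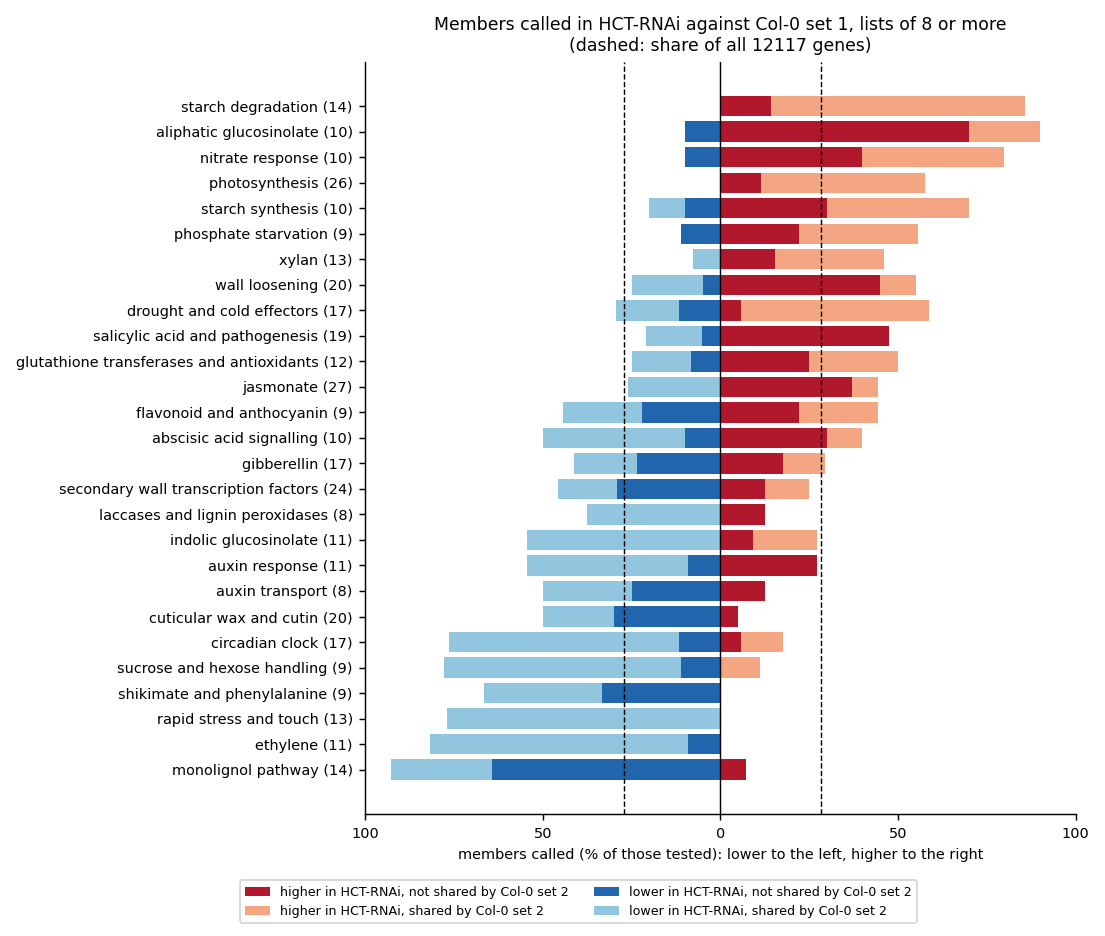
Share of tested members (x axis, percent; lower to the left, higher to the right) called in HCT-RNAi against Col-0 set 1 for the lists with 8 or more tested members, whose number stands in brackets; dark bars are changes not shared by Col-0 set 2 and pale bars shared ones. Dashed lines mark the 28.2% of all genes called higher and the 27.2% called lower. The monolignol list reaches furthest to the left, and its bar is mostly dark, while the bars of starch degradation and of rapid stress and touch are mostly pale.

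Defence genes of the salicylic acid branch rose in part. Of 19 tested members 9 rose and 4 fell (median 0.11), and none of the 9 rises but 3 of the 4 falls were shared by Col-0 set 2. Over all genes 28.2% were called higher and 27.2% lower. Summed over all listed members, those with overlap included, the level was 3107 to 3126 scaled CPM in HCT-RNAi, against 2822 to 2895 in Col-0 set 1 and 715 to 746 in Col-0 set 2. Where set 2 stands so far below set 1, a rise can hardly count as shared and a fall nearly always does, so sharing says little about this list. PR5, a thaumatin-like protein, had 329.7, 335 and 348 scaled CPM in HCT-RNAi, against 159, 187 and 151 in Col-0 set 1 (log2 fold change 1.02, SE 0.06, edgeR adjusted p = 1.92e-11). PR2, a beta-glucanase, had 371, 355 and 372 scaled CPM in HCT-RNAi, against 216, 228 and 199 in Col-0 set 1. PR1, the classical marker, was low throughout, with 6.59, 5.04 and 10.1 scaled CPM in HCT-RNAi and 1.84, 2.14 and 2.02 in Col-0 set 1 (1.86, SE 0.23), and Col-0 set 2 replicate 1 reached 4.71. ICS1, which makes the precursor of salicylic acid, rose at 0.44 (SE 0.07) and EDS1 at 0.38 (SE 0.05). ACD6, an ankyrin protein of the same branch, fell at -0.83 (SE 0.04).

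Of 27 jasmonate genes 12 rose and 7 fell, and the 7 falls were shared by Col-0 set 2 while 10 of the rises were not. Over all genes 28.2% were called higher and 27.2% lower, so the share of jasmonate falls was near that of all genes. The storage protein gene VSP1 had 29.3, 28.8 and 31.6 scaled CPM in HCT-RNAi, against 6.65, 6.30 and 7.24 in Col-0 set 1, a fold change (log2) of 2.16 (SE 0.09, edgeR adjusted p = 1.16e-13). CORI3, a cystine lyase, rose at 2.52 (SE 0.21), VSP2 at 1.09 (SE 0.05), and among synthesis genes AOC1, LOX2 and AOC2 rose at 1.46, 1.39 and 1.12. The early regulators did not follow as a group, with JAZ1 at 774, 758 and 753 scaled CPM in HCT-RNAi and 793, 798 and 753 in Col-0 set 1. JAZ2 and JAZ6 fell. JAZ8 rose, but lost its call without HCT-RNAi replicate 3 or Col-0 set 1 replicate 1 or 2 (edgeR adjusted p = 0.0669, 0.0605 and 0.107). Col-0 set 2 stood far from both groups here, with 0, 3.70 and 2.35 scaled CPM of JAZ1 and 0, 2.55 and 3.45 of VSP1. All 32 listed jasmonate members, 2 of them left out of the counts for overlap, summed to 9777 to 10042 scaled CPM in HCT-RNAi. The sum was 8191 to 8445 in Col-0 set 1 and 705 to 761 in Col-0 set 2. Of 13 rapid stress and touch genes 10 fell and none rose in HCT-RNAi. Summed over all 20 listed members, 7 of them left out of the counts for overlap, the level was 10681 to 10933 scaled CPM in HCT-RNAi. It was 9012 to 9316 in Col-0 set 1 and 405 to 470.4 in Col-0 set 2. The sum was thus higher in HCT-RNAi than in set 1, though no tested member rose. The highest log2 fold change of a tested member was 0.024, so the excess lay in the 7 members with overlap. Genes with overlap were low in set 1 as a group, so the higher sum is no evidence of a rise. All 10 falls counted as shared. With set 2 so far below set 1, sharing says little about either list.

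Aliphatic glucosinolate genes, which make methionine-derived defence compounds, rose almost together. Of 10 tested members 9 rose and 1 fell (median 0.65), and 2 of the rises were shared. MAM1, which elongates the methionine chain, had 1800.1, 1605 and 1686 scaled CPM in HCT-RNAi, against 821, 828 and 822 in Col-0 set 1 (log2 fold change 1.04, SE 0.04, edgeR adjusted p = 2.44e-13), and Col-0 set 2 had 522, 469 and 441. CYP79F1, the entry hydroxylase, rose at 1.17 (SE 0.04, shared), the regulator MYB76 at 1.13 (SE 0.17) and MYB29 at 0.31 (SE 0.05), while MYB28, their paralog, fell at -0.29 (SE 0.04). Of 11 indolic glucosinolate genes, by contrast, 6 fell, all shared, and 3 rose; the difference between the lists was not tested.

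Of 20 wall loosening genes 11 rose and 5 fell (median 0.24), and 9 rises were not shared. All 22 listed members, 1 of them left out of the counts for overlap, summed to 4207 to 4357 scaled CPM in HCT-RNAi. The sum was 4137 to 4242 in Col-0 set 1 and 1240.3 to 1374 in Col-0 set 2, so here too sharing says little. XTH16, a xyloglucan endotransglucosylase, had 24.8, 30.7 and 28.1 scaled CPM in HCT-RNAi, against 6.08, 4.71 and 4.36 in Col-0 set 1, a log2 fold change of 2.44 (SE 0.12). XTH23 rose at 2.06 (SE 0.06), XTH9 at 1.36 (SE 0.05) and XTH33 at 1.17 (SE 0.20). XTH31 and the expansin EXPA15 rose at 2.27 and 1.31, and EXPA8 and EXPA1 fell at -1.63 and -0.77, but these 4 were shared. Beside them the pectin methylesterase PME41 rose at 1.98 (SE 0.12) and PME35, which has been linked to stem strength, fell at -0.76 (SE 0.04). The wall sensor THE1 rose at 0.61, while FER was at -0.07 and not called, among 7 sensing genes of which 3 rose and 1 fell. The fall, HERK2 at -0.22, lost its call without HCT-RNAi replicate 1 or Col-0 set 1 replicate 1 (edgeR adjusted p = 0.0946 and 0.144), and 2 fell without Col-0 set 1 replicate 3.

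**Figure D3:**
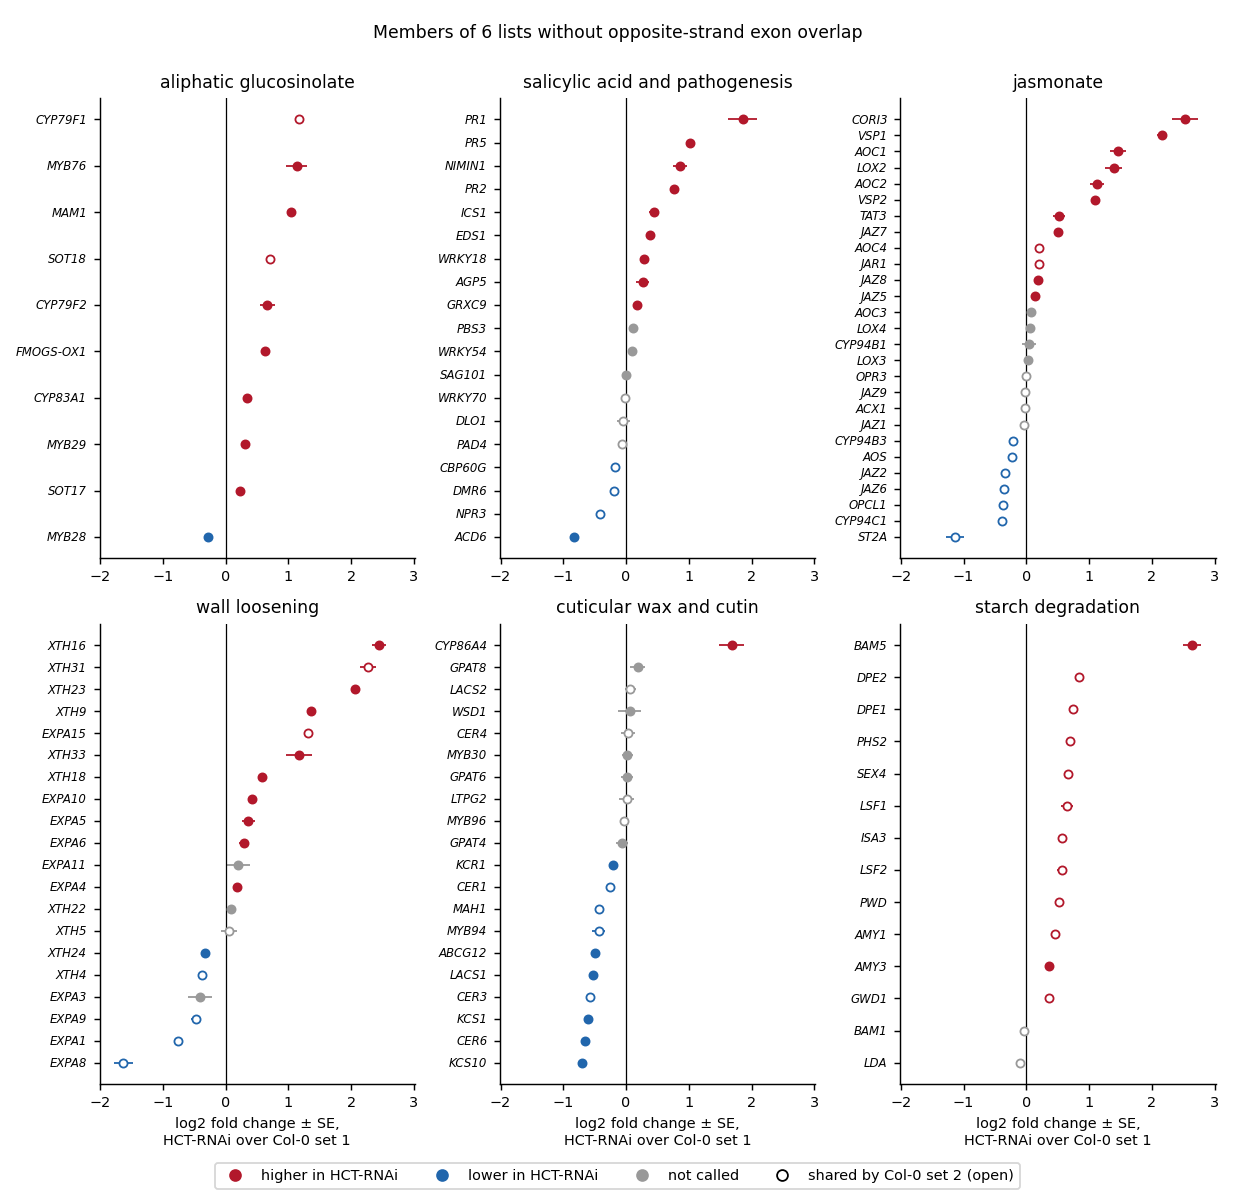
Log2 fold change ± SE (x axis, HCT-RNAi over Col-0 set 1) of every member without overlap in 6 lists; red is higher, blue lower and grey not called, and open points are changes shared by Col-0 set 2. CORI3, BAM5 and XTH16 lie furthest to the right, at 2.52, 2.64 and 2.44, and nearly all starch degradation points are open.

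Starch genes rose, largely as they did in Col-0 set 2. Of 14 starch degradation genes 12 rose and none fell (median 0.56), but 10 of the 12 were shared. BAM5, a beta-amylase outside the plastid, was the exception in size, with 32.3, 26.4 and 33.5 scaled CPM in HCT-RNAi, against 6.42, 4.82 and 3.11 in Col-0 set 1 (log2 fold change 2.64, SE 0.14), and Col-0 set 2 had 3.93, 1.73 and 3.91. Of 10 starch synthesis genes 7 rose and 2 fell (1 without HCT-RNAi replicate 2), 4 of the rises shared. GBSS1, the granule-bound starch synthase, rose at 0.87 (SE 0.06) and was not shared. Of 10 nitrate response genes 8 rose and 1 fell, and 4 rises were shared. BT2, a scaffold protein induced by nitrate and repressed by sugar, had 157, 155 and 159 scaled CPM in HCT-RNAi, against 46.6, 48.7 and 47.2 in Col-0 set 1 (log2 fold change 1.72, SE 0.04, edgeR adjusted p = 8.72e-17), and Col-0 set 2 had 39.3, 41.3 and 40.6. NRT1.1, the nitrate transporter and sensor, fell at -1.48 (SE 0.14).

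In several lists most of the called changes were shared by Col-0 set 2. Of 17 drought and cold genes 10 rose, 9 of them shared, with RD29B at 3.07 and COR15A at 2.49. Of 26 photosynthesis genes 15 rose and none fell, 12 shared, but without Col-0 set 1 replicate 3, 12 rose and 6 fell. Of 17 clock genes 13 fell, 11 shared, and of 11 ethylene genes 9 fell, 8 shared, led by ARGOS at -1.72. Summed over all listed members, the ethylene genes had 972 to 1007 scaled CPM in Col-0 set 2, against 2906 to 2955 in Col-0 set 1. The drought and cold genes had 24908.5 to 32925 against 12908 to 13527, so sharing says little about either list. The clock sum was 2629 to 2659 in HCT-RNAi, lower than in set 1 (2957 to 2986), while in set 2 it was higher (9815 to 11840). For the shared changes of all these lists a difference of the line and a difference of the set 1 tables cannot be told apart.

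The largest rise was that of GRP9, and larger falls were all shared by Col-0 set 2. GRP9, a glycine-rich protein gene (AT2G05440, chromosome 2, 1993038 to 1994177, plus strand), had 4481, 3876 and 3785 counts in HCT-RNAi, against 14, 3 and 6 counts in Col-0 set 1, while Col-0 set 2 had 0, 1 and 5. Its log2 fold change was 8.84 (SE 0.13, edgeR adjusted p = 3.83e-20). AT2G05510, another glycine-rich protein gene close by on the same chromosome (2015624 to 2016772), had 264, 133 and 241 counts in HCT-RNAi and 6, 0 and 2 in Col-0 set 1 (6.07, SE 0.39). Both belong to a family of like genes, whose reads the counting could split. Of their relatives, GRP-3 had 1535, 1452 and 1509 unscaled CPM in HCT-RNAi and 1184, 1166 and 1304 in Col-0 set 1, and GRP3S had 103.5, 95.7 and 98.3 in HCT-RNAi and 35.7, 29.7 and 39.96 in Col-0 set 1. SWEET15, a sucrose exporter also known as a senescence marker, had 262, 307 and 287 counts in HCT-RNAi, against 1, 2 and 1 in Col-0 set 1 (7.45, SE 0.27), while Col-0 set 2 had 0, 0 and 5. Of 6 senescence markers tested, SWEET15 included, 2 rose and 3 fell. SAG13 rose at 2.14, shared, while SAG12, a cysteine protease, fell at -1.40 (SE 0.11), not shared, and the regulator NAP fell at -1.20, shared.

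ABCG20, a transporter for suberin monomers (AT3G53510, chromosome 3, 19837148 to 19839983, minus strand), was nearly absent from HCT-RNAi. It had 2, 2 and 1 counts there, against 230, 213 and 146 counts in Col-0 set 1 and 31, 46 and 126 in Col-0 set 2, a fold change (log2) of -6.95 (SE 0.25, edgeR adjusted p = 2.71e-14). It was the only suberin gene of 10 listed that passed the filter on low counts. The libraries labelled gpt2-1 had 3.79 to 4.88 unscaled CPM of ABCG20, whereas the first library of the 35S GPT2 line, whose gene labels hold, had 0.0871, so a value near 0 was not confined to HCT-RNAi. In that library GRP9 and SWEET15 were at 0, and in the libraries labelled gpt2-1 GRP9 was at 2.196, 0.140 and 0.265 unscaled CPM. GPT2 itself had 112.6 to 118.7 unscaled CPM in the libraries labelled gpt2-1, against 1.201 to 1.507 in Col-0 set 1. That label thus does not go with a low GPT2 level.

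Among the other rises by the rule used to name genes, MLP28, a major latex protein-like gene, had 612, 624 and 565 scaled CPM in HCT-RNAi, against 71.6, 65.4 and 79.4 in Col-0 set 1 (3.06, SE 0.06). AT5G22860, a serine carboxypeptidase gene, rose at 2.70, AT2G16890, a UDP-glycosyltransferase gene, at 2.46 and the aldehyde oxidase gene AO4 at 2.30. Among the falls were the homeobox gene HB32 (-2.06, SE 0.15), AT5G56840 (-1.85), AT5G26960 (-1.53), AT3G01345 (-1.32), AT1G22230 (-1.24), UGT71C1 (-1.21), a glucosyltransferase gene, and SGR5 (-1.18), a regulator of the shoot's response to gravity. HCT itself was the seventh of the 10 largest falls and GPT2 the sixth of the 10 largest rises. AT1G03495, an HXXXD-type acyltransferase gene as HCT is, under the level that rule asks for and chosen after its values were seen, had 0.104, 0.235 and 0.108 scaled CPM in HCT-RNAi, against 4.65, 5.70 and 5.21 in Col-0 set 1 (-5.09, SE 0.30), and was not shared. The largest shared changes of genes with at least 10 CPM were AT4G33550 (5.84) and ELIP1 (4.90) among rises and AT7SL-1 (-10.25) and AT4G15150 (-9.34) among falls.

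Over all 12117 genes, 3414 (28.2%) were higher and 3296 (27.2%) lower in HCT-RNAi. Most changes were small, with a median absolute log2 difference of 0.20, and 295 genes (2.43%) were at least 2-fold higher and 139 (1.15%) at least 2-fold lower. Of these, 107 of the higher and 103 of the lower genes were shared by Col-0 set 2, which left 188 and 36. The 2 wild type sets differed by a median absolute log2 value of 0.65, more than HCT-RNAi did from set 1. By the values of single libraries, 197 genes at least 2-fold higher lay above all 6 wild type libraries and 41 genes at least 2-fold lower lay below all 6.

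**Figure D4:**
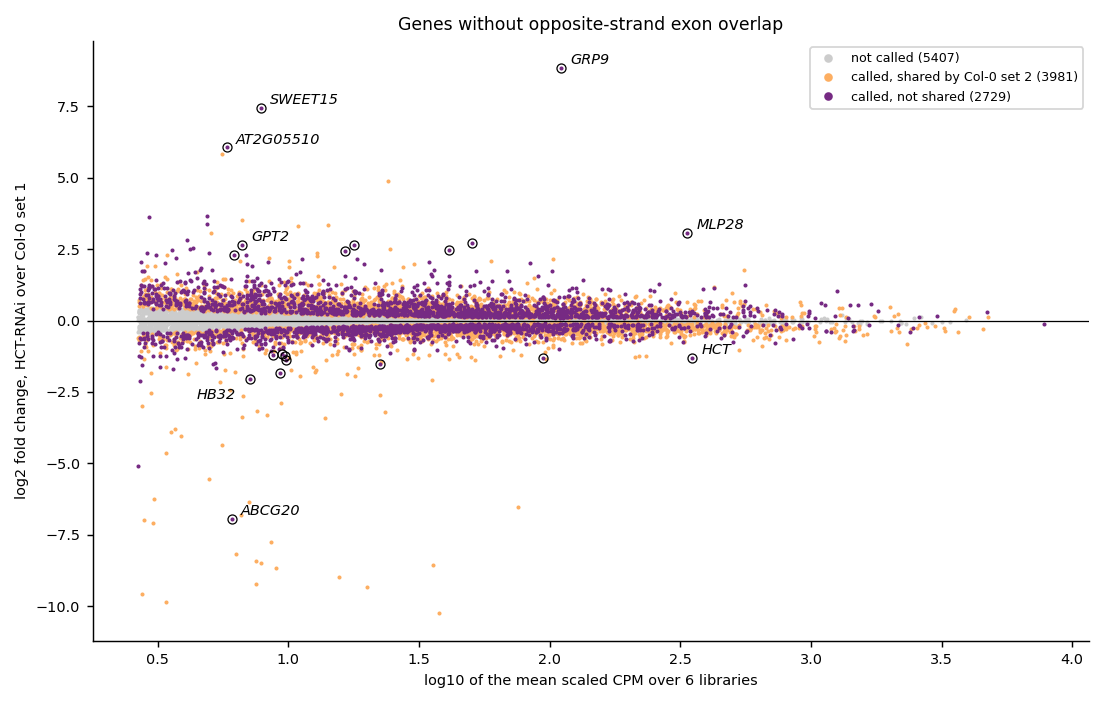
Log2 fold change of HCT-RNAi over Col-0 set 1 (y axis) against the log10 of the mean level over the 6 libraries (x axis) for the 12117 genes without overlap; purple genes were called and not shared by Col-0 set 2, orange ones called and shared, grey ones not called, and circles mark the 20 genes named by size. GRP9, SWEET15 and AT2G05510 are the highest points, and the points under a log2 fold change of -2.5 are orange, other than ABCG20 and AT1G03495.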

How the data were processed

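RNA of stems was sequenced with a TruSeq stranded mRNA kit, per the labels' protocols, and the deposited values are the authors' raw read counts for each gene. STAR, DESeq2 and TAIR10 are named, without a role, in the submitters' processing notes, and no source used here gives the counting tool, its strand setting or the annotation. The 60 records of the series form 15 samples of 4 records that share 1 table, each counted once. Of 38186 rows per table, 219 without a gene name (0.000382% to 0.00108% of the counts in the 6 libraries compared) were left out, and all 37967 others matched TAIR10.1, which gave symbols, coordinates and exon overlap. Total counts were 23041771 to 26129812 in HCT-RNAi and 16591700 to 24150608 in Col-0 set 1. Replicates differed by more than counting noise (chi-square divided by its degrees of freedom 1.95 to 5.34 in these groups and 21.2 to 33.4 in Col-0 set 2). Nothing says whether they came from separate cultures, so p-values measure the spread between these samples.

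As labelled, the Col-0 set 2 tables had a Spearman correlation of 0.101 to 0.112 with the first Col-0 set 1 sample, and in the row order of the first 35S GPT2 sample one of 0.884 to 0.925. The row labelled GPT2 in the set 2 tables repeats the counts of Col-0 set 1. In the other order it falls on PGD1, which was left out of set 2.

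Genes with a mean of at least 2 CPM were fitted with edgeR 4.0.16 (R 4.3.3, limma 3.58.1), with TMM factors and library sizes from genes without overlap, a quasi-likelihood F test and Benjamini-Hochberg adjustment over the 16805 genes. The SE given with a log2 fold change is its absolute value divided by the square root of that test's F statistic. The procedure was tested on simulated data. Just inside the filter was AT5G26731 (2.00 CPM) and just outside AT2G28815 (1.997). The smallest overlap left out was 0.0224% (XDH1). In the set 2 rule the nearest ratios to 0.5 were 0.502 (NAM) and 0.49998 (AT1G11730). Named were HCT, GPT2, the 10 largest rises and falls among called genes of at least 10 CPM in the higher group whose groups did not overlap and that were not shared, and from each of 47 lists (694 loci) up to 5 called members by p and those changed at least 2-fold. From the lists, 25 loci without a symbol in the gene table were dropped. Not every gene the rule admits is printed, and members outside it are named to complete a group. The members, lists and tests were chosen with earlier results of these data known. DESeq2 1.42.0, other filters and scalings, the sample number as a block and leaving out each library were alternatives. Promoters were read with pysam 0.24.0.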

Additional observations from a re-analysis of the deposited data

How the results depend on the processing

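HCT stayed lower and GPT2 higher under all 13 other fits, at -1.26 to -1.35 and 2.53 to 2.83 with each library left out in turn, and past the test in each. Of 218 other genes that the naming rule admits 210 kept their call in every fit that tested them and none reversed; LAC10, LAX3, BFN1, CLE44, UGT72B3, HERK2, HB-8 and COBL4 lost it in at least 1 of the fits with DESeq2, with the gpt2-1 libraries added or with a library left out, and the cause was not tested. Of all 349 called list members, those outside the rule included, 313 kept their call in every fit that tested them, none reversed, and CAD5, MYB63, MYB83 and GASA4 were among the 36 that lost it at least once. Counts of higher and lower genes were 3087 and 3773 with TMM over all kept genes, which turns the balance to lower genes, 3028 and 2828 with DESeq2, 3373 and 3256 with genes without overlap fitted alone, and 3065 to 3345 and 2873 to 3222 with a library left out. Counts of genes at least 2-fold higher were 497 with filterByExpr and 625 with no filter, and at least 2-fold lower 348 and 634, since more genes of low counts were tested; those not shared by Col-0 set 2 were then 310 and 399 higher and 89 and 141 lower. Counting every gene with overlap gave 5594 higher genes, 959 of them at least 2-fold, since overlapped genes are low in Col-0 set 1. Asking that Col-0 set 2 differ by the whole size to count as shared left 72 genes at least 2-fold lower in place of 36. The 13 monolignol falls were 12 to 13 over the other fits, the 9 aliphatic glucosinolate rises 9 in each, and the 9 rises of the salicylic acid list 8 to 10. Sample numbers did not pair the samples (correlations of same-numbered deviations -0.0434, -0.0861 and -0.0554), and with the number as a replicate block 3292 genes were higher and 3140 lower. With 3 samples a group, low genes such as PR1 and GPT2 rest on few counts.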

Other observations

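Further lists held single changes that Col-0 set 2 did not share. MYB75, an activator of anthocyanin synthesis, had 4.26, 4.34 and 4.14 scaled CPM in HCT-RNAi, against 1.38, 1.096 and 1.32 in Col-0 set 1 (log2 fold change 1.75, SE 0.19), while of 9 flavonoid and anthocyanin genes 4 rose and 4 fell (2 rose without HCT-RNAi replicate 1 or 2). Of the 23 genes listed there, 12 were under the filter, among them the enzyme genes DFR and LDOX. DFR had 0.675, 0.821 and 0.645 scaled CPM in HCT-RNAi and 0.631, 0 and 0.311 in Col-0 set 1. CSD2, a plastid superoxide dismutase, rose at 1.09, its chaperone CCS at 0.65, and the iron superoxide dismutase FSD1 fell at -0.71. In the gibberellin list the DELLA repressors RGA, GAI and RGL1 fell at -0.46, -0.34 and -0.48, GID1C, a receptor, fell at -0.52, and GASA4 rose at 0.91, a call lost with DESeq2 (adjusted p = 0.0552).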
